A study of Mus musculus with 12 samples.

Results

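The Obox genes are a mouse family of homeobox genes on chromosome 7, and the data here cover 5 of them, Obox1, Obox2, Obox3, Obox5 and Obox6, out of 43346 gene IDs measured. They were chosen by symbol, with the prior knowledge that Obox6 RNA differs with the parental origin of a segment of chromosome 13, so the Obox6 values below are a description without a test. The question asked of the other members was whether they follow the segment as well. RNA came from embryonic stem cells in 4 groups, each with 3 libraries. B6 is the inbred strain C57BL/6J and D2 is the inbred strain DBA/2J. B6-13D2 (B6.D2-(rs30079041-rs51756099)/Bakr) carries a chromosome 13 segment of D2 on the B6 background. D2-13B6 (D2.B6-(rs29224292-rs13469455)/Bakr) carries a chromosome 13 segment of B6 on the D2 background, and the series text names another marker as the end of that segment. All groups grew with serum, LIF, the MEK inhibitor PD0325901 and the GSK3 inhibitor CHIR99021.

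Homeobox genes encode transcription factors that bind DNA through a folded domain of 3 helices, the homeodomain, the last of which lies in the major groove. Obox genes are known for expression in the oocyte and the early embryo, where family members take part in activating the embryonic genome. The family is a tandem cluster with many pseudogene copies, so that a short read can fit several of them.

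Per the protocol each strain was sampled as separate cultures of 1 cell line, so the strain and the line that stands for it cannot be told apart, and p-values measure the spread between cultures. The titles call the samples technical replicates, and name a different line for B6 replicate 3 and for D2 than other labels do. Libraries held 22184196 to 36411799 expected counts. The 10 stem cell markers examined (among them Pou5f1, Sox2 and Nanog) were all above the count filter, with a summed level of 3647 to 6399 CPM (counts scaled to a common library total, with TMM factors). By group these sums were 5235 to 5590 CPM for B6, 3647 to 3726 for D2, 6117 to 6399 for B6-13D2 and 4487 to 4545 for D2-13B6. All 8 fibroblast markers (Col1a1, Col1a2, Col3a1, Dcn, Lum, Thy1, Pdgfrb and Postn) were above it too, with sums between 9383 and 10191 CPM for B6 and between 14177 and 16967 for D2. The sums were 3095 to 3182 CPM for B6-13D2 and 7731 to 8055 for D2-13B6. Summed markers of trophoblast lay between 66.2 and 107 CPM and those of primitive endoderm between 15.1 and 43.7 CPM. In B6-13D2 the trophoblast sums were the highest (104 to 107 CPM) and the primitive endoderm sums the lowest (15.1 to 15.7 CPM). No marker of these lists was at 0 in every library.

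The homeobox is the part of these genes by which they are recognised as a family, and it shows how far Obox6 stands from its relatives. The 180 coding bases of the homeobox are given below from GENCODE M21 on GRCm38, 5′ to 3′ in the sense of the gene. Each lies in coding exons and is split by at least 1 intron, since it spans more than 180 bases of the genome. Capitals mark bases that differ from Obox6, which is therefore all in lower case. Obox6 is on the minus strand at chr7:15833909-15834517, Obox5 on the plus strand at chr7:15757941-15758580, Obox3 on the minus strand at chr7:15626284-15626933 and Obox1 on the plus strand at chr7:15555567-15556192.
Obox6: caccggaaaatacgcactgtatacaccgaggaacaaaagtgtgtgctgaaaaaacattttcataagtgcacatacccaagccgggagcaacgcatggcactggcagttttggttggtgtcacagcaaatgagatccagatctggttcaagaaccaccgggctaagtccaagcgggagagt
Obox5: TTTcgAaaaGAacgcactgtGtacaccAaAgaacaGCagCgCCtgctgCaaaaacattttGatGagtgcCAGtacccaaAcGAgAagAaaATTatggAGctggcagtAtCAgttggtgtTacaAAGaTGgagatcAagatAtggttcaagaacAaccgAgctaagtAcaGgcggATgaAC
Obox3: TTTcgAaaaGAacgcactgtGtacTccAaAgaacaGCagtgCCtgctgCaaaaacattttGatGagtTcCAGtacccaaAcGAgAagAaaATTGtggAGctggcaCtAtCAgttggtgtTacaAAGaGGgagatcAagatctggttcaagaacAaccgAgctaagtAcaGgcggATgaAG
Obox1: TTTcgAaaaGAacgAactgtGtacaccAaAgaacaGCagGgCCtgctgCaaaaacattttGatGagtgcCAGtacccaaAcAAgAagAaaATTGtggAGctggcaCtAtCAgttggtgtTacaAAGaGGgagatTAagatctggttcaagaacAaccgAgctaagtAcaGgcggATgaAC
Obox5 differed from Obox6 at 49 bases (72.8% identical), Obox3 at 51 (71.7%) and Obox1 at 52 (71.1%). Obox1, Obox3 and Obox5 differed from each other at only 7 or 8 bases (95.6% to 96.1% identical). No homeobox is shown for Obox2, because the search pattern for the recognition helix was not found in its annotated coding sequence. Over the whole transcript, none of the 1245 stretches of 100 bases in Obox6 occurred in another annotated gene. The share was 1.8% for Obox5, 8.9% for Obox3, 42.3% for Obox1 and 47.2% for Obox2, the last pair sharing 754 stretches with each other.

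The annotation holds 55 Obox gene IDs, of which 48 are rows of the table and 7 were not analysed here. The 46 rows on chromosome 7 lie within 1.51 Mb (chr7:14331436-15839678 on GRCm38), and 2 are on chromosome 17. Of the 48 rows, 7 are protein-coding (the 5 members, Obox7 and Obox8), and 32 are copies of the Obox4 pseudogene. Counts were whole in 24 rows and divided with another row in 24, and 11 rows were at 0 in every library. A total of 11 rows passed the filter on low counts, Obox6 and 10 Obox4 pseudogenes. Of the 5 members, 1 passed.

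Obox6 (chr7:15833241-15839678, minus strand) was abundant wherever the cells carried the B6 segment and scarce wherever they carried the D2 segment. B6 libraries held 424, 473 and 483 Obox6 counts, or 18.6, 19.9 and 20.7 CPM. D2 libraries held 19, 50 and 26 counts, or 0.791, 1.39 and 1.18 CPM. With the D2 segment on the B6 background, in B6-13D2, the counts were 24, 6 and 10, or 0.831, 0.201 and 0.377 CPM. All 3 were far below the B6 libraries; 1 lay within the D2 range and the others below it. With the B6 segment on the D2 background, in D2-13B6, the counts were 1460, 1487 and 1166, or 40.0, 41.1 and 39.7 CPM. These were the highest of all 12 libraries, above B6 as well as D2. The order of the group levels was D2-13B6, B6, D2 and B6-13D2, and the last pair overlapped.

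**Figure D1:**
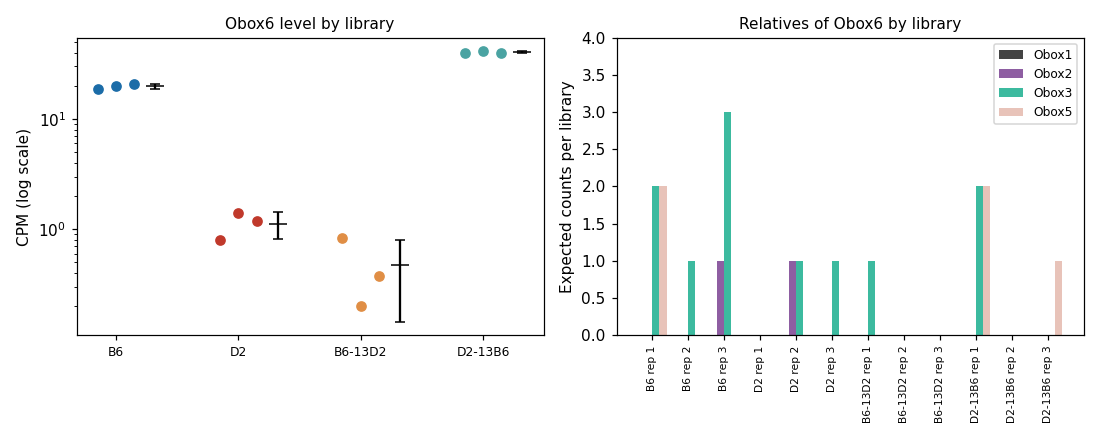
Left, Obox6 in CPM on a log axis for each of the 12 libraries (points), with the group mean and SD in black (n = 3); B6 and D2-13B6 lie at 18.6 CPM or more, D2 and B6-13D2 at 1.39 CPM or less. Right, expected counts of Obox1, Obox2, Obox3 and Obox5 in each library (bars, linear axis); no bar exceeds 3 counts and Obox1 has none.

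In fold terms, Obox6 was 41.6-fold lower in B6-13D2 than in B6 (log2 fold change -5.38, SE 0.182) and 34.7-fold higher in D2-13B6 than in D2 (5.12, SE 0.140). The parental strains differed 17.0-fold, with D2 lower (log2 -4.09, SE 0.155). Among 17148 genes tested, the Obox6 change ranked 10th from the lowest in B6-13D2 against B6 and 11th from the highest in D2-13B6 against D2. The B6 segment gave 2.04-fold more Obox6 on the D2 than on the B6 background (log2 1.03, SE 0.0895). Taken as D2 segment minus B6 segment on each background, the change on the B6 background minus that on the D2 background was -0.26 (log2, SE 0.337), and this difference was 0.12 without B6-13D2 replicate 2 and -0.98 without B6-13D2 replicate 1. In B6-13D2 against B6 the log2 fold change was -6.09 without B6-13D2 replicate 1. Obox6 was low both in D2, where the summed fibroblast markers were highest, and in B6-13D2, where they were lowest; their part in the result was not tested. In bulk RNA, fewer cells with a transcript and less of it per cell cannot be told apart.

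Per kb of exon, the Obox6 level was 14.7 ± 0.779 CPM for B6, 0.835 ± 0.226 for D2, 0.350 ± 0.242 for B6-13D2 and 30.0 ± 0.575 for D2-13B6 (SD, n = 3). No other coding member exceeded 0.0411 CPM per kb in any library. Obox6 made up 96% to 100% of the counts of all coding Obox genes in each library.

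The closest coding relatives were not measurable. Obox3 (chr7:15479825-15639902, minus strand) had 2, 1 and 3 counts in B6. It had 0, 1 and 1 counts in D2, 1, 0 and 0 in B6-13D2, and 2, 0 and 0 in D2-13B6. Obox5 (chr7:15750131-15759800, plus strand) had 2, 0 and 0 counts in B6 and 2, 0 and 1 in D2-13B6, and 0 in the 6 libraries with the D2 segment. Obox2 (chr7:15388721-15398545, plus strand) had 1 count in B6 replicate 3 and in D2 replicate 2, and Obox1 (chr7:15388948-15556866, plus strand) had 0 in all 12 libraries. Obox7 and Obox8 also had 0. Every one of these values is at or under 3 counts, the limit that a count of 0 allows, which corresponds to 0.0822 to 0.137 CPM. A change of Obox1, Obox2, Obox3 or Obox5 within that range was therefore not detectable at this depth, and none of them reached more than 3 counts in any library with the B6 segment, where Obox6 had 424 or more. The annotated span of Obox1 overlaps that of Obox2 and, on the opposite strand, that of Obox3, and whether counting used the strand is not given in the sources used here.

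The remaining family signal came from the Obox4 pseudogenes, and it did not follow the segment as Obox6 did. All Obox rows other than Obox6 were summed, which removes the division of reads among them: in all 12 libraries the divided values added up to a whole number (within 0.001). The sum was 106, 127 and 123 counts in B6 and 261, 367 and 253 in D2. It was 177, 166 and 147 counts in B6-13D2 and 67, 63 and 69 in D2-13B6. The D2 libraries, low in Obox6, were the highest in this sum, and the D2-13B6 libraries, highest in Obox6, were the lowest; neither group overlapped another. In level, the groups stood at 5.09 ± 0.374 (B6), 10.9 ± 0.656 (D2), 5.75 ± 0.328 (B6-13D2) and 1.98 ± 0.325 CPM (D2-13B6; SD, n = 3).

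By edgeR's quasi-likelihood test with Benjamini-Hochberg adjustment over all genes, the sum fell by 2.46 on the log2 scale in D2-13B6 against D2 (SE 0.115, adjusted p = 6.60e-12). B6-13D2 against B6 gave 0.18 (log2, SE 0.112, edgeR adjusted p = 0.191), which did not pass the test. With each change taken as D2 segment minus B6 segment, which turns the sign of the first, the change on the B6 background minus that on the D2 background was -2.29 and passed the test (SE 0.163, edgeR adjusted p = 8.19e-10). D2 exceeded B6 by 1.09 (SE 0.106, edgeR adjusted p = 9.34e-08). At the same segment the groups also differed: B6-13D2 against D2 gave -0.91 (SE 0.101, edgeR adjusted p = 2.11e-07) and D2-13B6 against B6 -1.38 (SE 0.128, edgeR adjusted p = 5.23e-08). The summed fibroblast markers were likewise highest in D2, but lowest in B6-13D2 and not in D2-13B6; their part in the result was not tested.

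**Figure D2:**
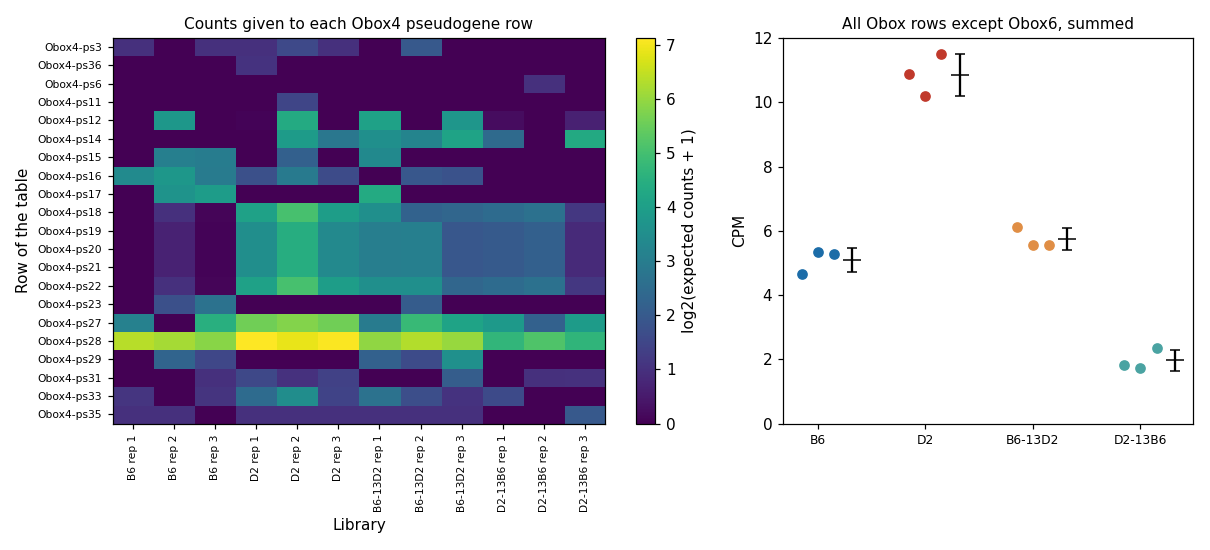
Left, expected counts of Obox4 pseudogene rows with at least 1 count in a library, as log2(counts + 1) by colour, for the 12 libraries; Obox4-ps28 is the brightest row and Obox4-ps19, Obox4-ps20 and Obox4-ps21 are identical. Right, the sum of all Obox rows except Obox6 in CPM for each library (points), with group mean and SD in black (n = 3); the D2 libraries are highest and D2-13B6 lowest.

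Single pseudogene rows were called in many comparisons, at shares to be read against the background of all genes. In D2-13B6 against D2, 7 of the 10 tested rows were called, all lower, beside 57.3% of all genes called and 29.7% called lower (27.6% higher). In B6-13D2 against B6, 6 of 10 were called, all higher, beside 58.3% of all genes called and 25.4% called higher (32.9% lower). In D2 against B6, 9 of 10 were called, 8 higher in D2 and 1 lower, beside 60% of all genes, 29.8% higher and 30.3% lower. For B6-13D2 against D2 it was 7 of 10, all lower, beside 74.6% of all genes, 38% lower and 36.7% higher. For D2-13B6 against B6 it was 5 of 10, 3 higher and 2 lower, beside 59% of all genes, 24.5% higher and 34.6% lower. The difference between backgrounds was called for 2 of 10, 1 in each direction, beside 64.5% of all genes, 31.1% higher and 33.4% lower. These counts lie near the background in several comparisons and are not independent of each other, since rows share their reads. Of the 10 rows, 5 (Obox4-ps18 to Obox4-ps22) passed the count filter through the D2 libraries, where they are high, so their being higher in D2 than in B6, and lower in B6-13D2 or D2-13B6 than in D2, was partly fixed by the filter. Obox4-ps17 passed it through B6 replicates 2 and 3 and B6-13D2 replicate 1 (11.6, 14.4 and 19.6 counts) and was near 0 elsewhere. Obox4-ps14 was near 0 in all B6 libraries and passed through the other groups. The calls of these rows against B6 were thus partly fixed by the filter as well. The counts also moved with the processing. B6-13D2 against D2 had 3 of 10 rows called by DESeq2. It had 4 of 11 without D2 replicate 2 or without B6-13D2 replicate 3, 1 of them higher. D2-13B6 against B6 had 2 of 10 by DESeq2 or without B6 replicate 1, and 2 of 11 without B6 replicate 3. Neither row called without B6 replicate 1 or 3 was higher. It had 3 of 11 without D2-13B6 replicate 1 or 2. With no filter it had 8 of 28, 1 of them higher, beside 10386 of 27967 genes called. The difference between backgrounds had 4 of 11 without B6-13D2 replicate 2. With no filter it had 5 of 28, beside 11506 of 27967 genes called. With only the libraries compared, B6-13D2 against B6 had 0 called of the 4 rows that then passed the filter, beside 9835 of 15888 genes. D2 against B6 had 4 of 4, beside 9401 of 15998 genes, and D2-13B6 against B6 had 1 of 1, beside 9857 of 16344 genes. Which rows pass depends on the libraries compared, so these counts are not over the same rows.

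A gene was said to follow the segment when it was called in both segment comparisons and was lower, or higher, with the D2 segment on both backgrounds. This held for 1257 of 17148 genes (7.33%), with 518 higher (3.02%) and 739 lower (4.31%) with the D2 segment. Of the 10 pseudogene rows 5 followed it, Obox4-ps18, Obox4-ps19, Obox4-ps20, Obox4-ps21 and Obox4-ps22, all higher with the D2 segment, the direction opposite to Obox6. Every stretch of 100 bases in these rows also occurs in another gene. Obox4-ps19, Obox4-ps20 and Obox4-ps21 had identical values in each library, so they amount to about 1 observation. Obox4-ps18 and Obox4-ps22 also had identical values except in B6-13D2 replicate 2 (3.76 and 10.7 counts). The 5 rows are therefore not 5 independent observations. Together the 5 rows held 0.00549, 3.79 and 0.243 counts in B6, 63.3, 126 and 57.0 in D2, 43.0, 36.5 and 16.7 in B6-13D2, and 18.5, 21.4 and 4.91 in D2-13B6. All D2-13B6 libraries exceeded all B6 libraries although both carry the B6 segment. These rows passed the count filter through the D2 libraries: with only the libraries compared they were not tested in B6-13D2 against B6. Their group means were at most 0.741 CPM (Obox4-ps18 in D2), so a filter at a mean of 1 CPM also left them untested.

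Obox4-ps28, the row with the largest share of the pseudogene counts in every library (32.9% to 79.9%), stood at 3.58, 2.97 and 2.46 CPM in B6 and at 5.78, 3.28 and 6.15 CPM in D2. It stood at 2.09, 2.61 and 2.41 CPM in B6-13D2 and at 0.674, 0.968 and 0.831 CPM in D2-13B6. The B6 range overlapped those of D2 and B6-13D2, while the D2-13B6 libraries lay below all others. Its log2 fold change was -2.59 in D2-13B6 against D2 (SE 0.244, edgeR adjusted p = 6.00e-08) and -0.34 in B6-13D2 against B6 (SE 0.229, edgeR adjusted p = 0.223).

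The next coding genes on the far side of Obox6 followed the segment in the same direction as Obox6. Crx (chr7:15865947-15879968, minus strand) encodes a homeodomain factor of the Otx type known from photoreceptors, and its annotated start is 40.3 kb from that of Obox6. Crx counts were 23, 38 and 19 in B6 and 3, 0 and 0 in D2. They were 0, 1 and 0 in B6-13D2, and 54, 34 and 26 in D2-13B6. Each library with the B6 segment held at least 19 counts and each with the D2 segment at most 3. Over the group, B6 exceeded B6-13D2 97.5-fold (exact 95% interval 17.0 to 3897, counting error only) and D2-13B6 exceeded D2 30.5-fold (10.2 to 150.2). Both comparisons passed edgeR's test, with adjusted p = 2.79e-06 and adjusted p = 8.07e-06. Between the groups with the B6 segment, the D2-13B6 level was 0.977 times that of B6 (0.727 to 1.32; edgeR adjusted p = 0.933). No stretch of 100 bases in Crx occurs in another annotated gene.

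Crxos (chr7:15882617-15904020, plus strand), another homeobox gene, starts 42.9 kb from Obox6 and on the opposite strand to Crx. Its level was 2.86 ± 0.298 CPM for B6, 9.70 ± 1.79 for D2, 0.603 ± 0.0661 for B6-13D2 and 42.6 ± 2.09 for D2-13B6 (SD, n = 3). It was lower in B6-13D2 than in B6 (log2 -2.25, SE 0.229, edgeR adjusted p = 1.47e-07) and higher in D2-13B6 than in D2 (log2 2.16, SE 0.0882, edgeR adjusted p = 1.26e-12). Unlike Obox6, Crxos was higher in D2 than in B6, by 1.74 on the log2 scale. At 5.1% of its 100-base stretches it shares sequence with other genes, and its counts were divided.

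**Figure D3:**
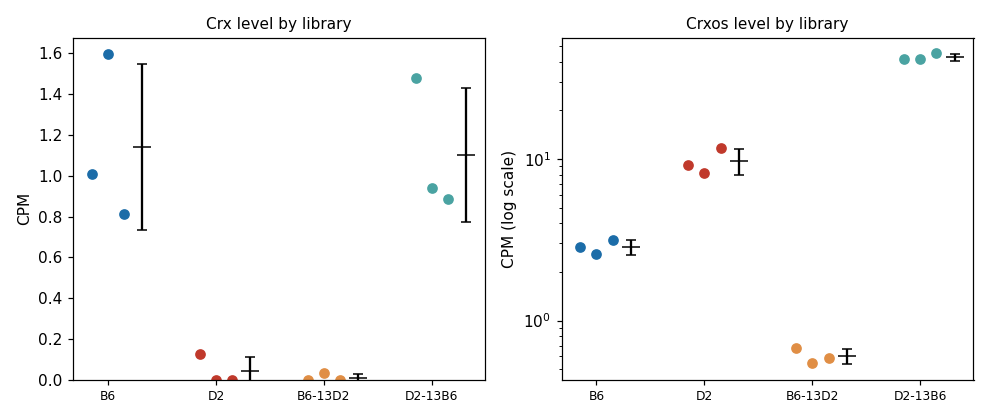
Crx (left, linear axis) and Crxos (right, log axis) in CPM for each of the 12 libraries (points), with group mean and SD in black (n = 3). Crx is near 0 in D2 and B6-13D2; Crxos is lower in B6-13D2 than in B6 and higher in D2-13B6 than in D2.

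**Figure D4:**
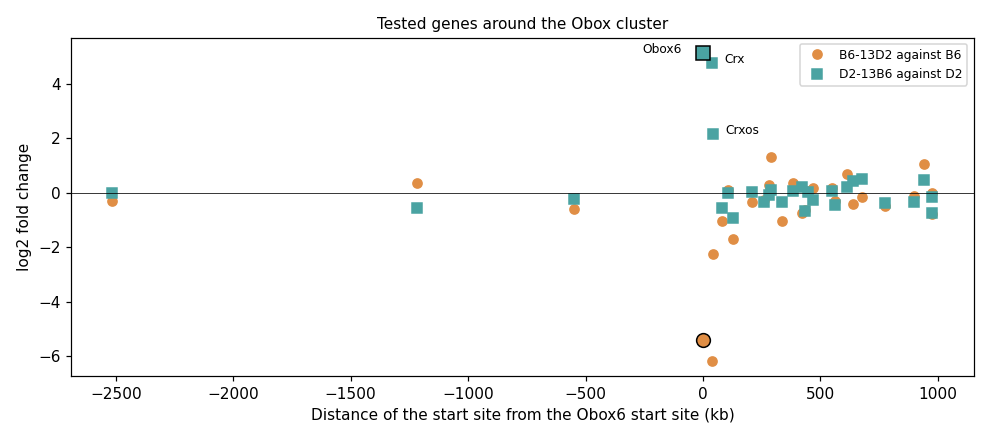
Log2 fold change of the 28 tested genes within 1 Mb of the Obox cluster against the distance of their start site from that of Obox6 in kb (circles, B6-13D2 against B6; squares, D2-13B6 against D2; Obox6 itself outlined). Obox6, Crx and Crxos lie far below 0 in the first comparison and far above 0 in the second, and the other genes lie closer to 0 in both.

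Within 1 Mb of the cluster 28 other genes were tested, and 3 followed the segment (Crx, Crxos and Bbc3), a share of 10.7% beside 7.33% of all genes. Bbc3, a BH3-only inducer of apoptosis 469 kb from Obox6, had the opposite direction and small changes (log2 0.17 and -0.27). It was named after its values were seen. In B6-13D2 against B6, 22 of the 28 were called (78.6%), 8 higher, beside 58.3% of all genes, with a median log2 fold change of -0.29 beside -0.04 over all genes. For D2-13B6 against D2 the count was 14 (50%), with 3 higher, beside 57.3% of all genes, and the median was -0.05 beside 0.00. Among the most abundant, Nop53, a ribosome biogenesis factor 106 kb from Obox6, had log2 fold changes of 0.09 and -0.00; the first was called, but not without B6 replicate 1 or 2 or without B6-13D2 replicate 1 or 2. Sae1, a subunit of the SUMO-activating enzyme, had 0.16 and 0.05. Slc1a5, a glutamine transporter, rose in both comparisons (1.05 and 0.47), and Arhgap35 fell in both (-0.49 and -0.37). The fibroblast markers also fell in both (median log2 -1.52 and -0.89), and their part in the result was not tested.

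**Figure D5:**
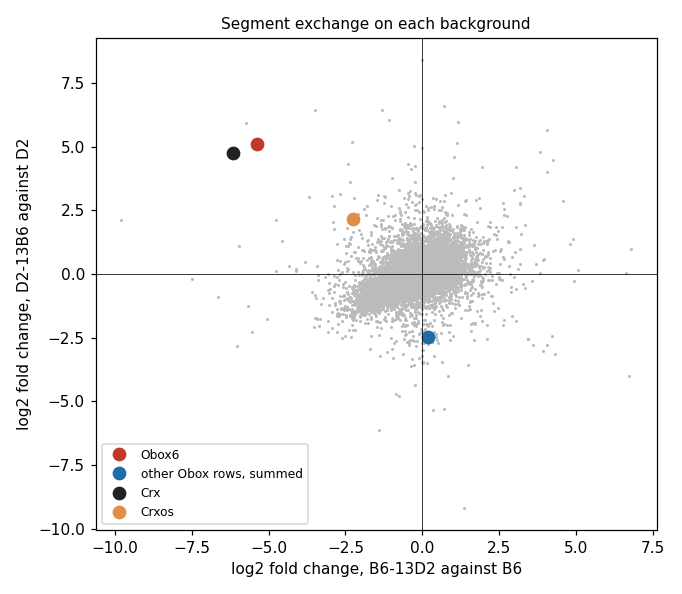
Log2 fold change in B6-13D2 against B6 (horizontal) and in D2-13B6 against D2 (vertical) for all 17148 tested genes (grey). Obox6, Crx and Crxos lie at the upper left, lower with the D2 segment on both backgrounds, whereas the sum of the other Obox rows lies below 0 on the vertical axis and near 0 on the horizontal.

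Over all tested genes, the pattern closest to that of Obox6 was that of Crx. Likeness was the root mean square difference between log2 CPM profiles, each centred on its own mean, over the 12 libraries. It was 1.18 for Crx, beside a median of 2.71 over all other genes. The next were Trim43a, a member of a tripartite-motif family of the early embryo, at 1.32, Crispld1 at 1.39, Boll, a germ cell RNA-binding protein, at 1.40, Cyp2c29, a cytochrome P450, at 1.41, and the pseudogene Gm14300 at 1.63. The Trim43a level was 1.26 ± 0.271 CPM for B6, 0.717 ± 0.168 for D2, 0.0975 ± 0.0945 for B6-13D2 and 5.83 ± 0.341 for D2-13B6 (SD, n = 3). Boll stood at 1.45 ± 0.245, 0.248 ± 0.0869, 0.277 ± 0.0477 and 3.28 ± 0.164 CPM in the same order. As with Obox6, D2-13B6 had the highest level of both genes. The closest mirror images were Gm17514, a noncoding RNA on chromosome 13, at 1.37, Aass, an enzyme of lysine breakdown, at 1.54, and Crygc, a lens crystallin, at 1.61. The Aass level was 0.759 ± 0.178 CPM for B6, 26.0 ± 2.67 for D2, 15.1 ± 0.674 for B6-13D2 and 2.91 ± 0.231 for D2-13B6. These genes were selected for their likeness, so their levels are a description.

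Other genes of the tissues in which the family is known were examined as lists. Of 19 tested genes of the cleavage-stage embryo (Zscan4 and related genes), 18 passed in D2-13B6 against D2, 16 of them lower, beside 57.3% of all genes called and 29.7% called lower. The median log2 fold change was -2.44 beside 0.00 over all genes. Some genes of the list passed the count filter through D2, such as Tdpoz4 (mean 0.933 CPM in D2 and at most 0.0945 elsewhere), so that their being lower was partly fixed by the filter. With a mean of at least 1 CPM, 12 genes of the list were tested and 11 called, beside 9182 of 14136 genes. On the B6 background 3 of the 19 were called, all lower, beside 58.3% of all genes called and 32.9% called lower, with a median of -0.14 beside -0.04. Of the 8 fibroblast markers, 7 were called in D2-13B6 against D2, all lower (median -0.89), and 8 in B6-13D2 against B6, all lower (median -1.52); their part in the result was not tested. Zscan4f, which is transiently active in stem cells, fell by 2.44 on the D2 background (SE 0.0667, edgeR adjusted p = 1.93e-14) and by 0.29 on the B6 background. Zscan4c had -2.61 and -0.18, the second not called (edgeR adjusted p = 0.186). Mean levels of Zscan4f were 23.4 CPM for B6, 90.3 for D2, 19.1 for B6-13D2 and 16.6 for D2-13B6. D2 thus stood highest in Zscan4f, as it did in the sum of Obox4 pseudogenes and not in Obox6. Of the list 1 gene followed the segment (5.26%, beside 7.33% of all genes), Dppa2, a chromatin-binding activator of early embryonic genes, with -0.60 and 0.25, the direction of Obox6. Its partner Dppa4 had -0.06 (not called) and 0.42.

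Of 12 tested oocyte genes, 9 were called in B6-13D2 against B6 (75%, 7 higher, beside 58.3% of all genes), with a median log2 fold change of 0.72 beside -0.04. In D2-13B6 against D2 it was 8 (66.7%, 5 higher, beside 57.3% of all genes), with a median of 0.27 beside 0.00. Nlrp4f, an oocyte protein of the NLRP family, had the direction of Obox6 (log2 -0.76 and 2.59), but it lies on chromosome 13 itself (chr13:65177111-65205977), the chromosome of the exchanged segment. Whether it lies within the segment was not tested. Ooep, a subunit of the subcortical maternal complex, rose in both comparisons (0.57 and 0.53). Khdc3, of the same complex, rose on the B6 background by 1.66 and had -0.00 on the other, and Dppa3, a maternal factor that protects DNA methylation, fell in both (-0.99 and -0.78). In this list 3 genes followed the segment (25%, beside 7.33% of all genes), of which Nlrp4f was the 1 that was lower with the D2 segment. Of 29 tested homeobox genes of the paired-type class, 19 were called in B6-13D2 against B6 (65.5%, 9 higher, beside 58.3% of all genes), with a median of 0.39 beside -0.04. In D2-13B6 against D2 it was 20 (69.0%, 12 higher, beside 57.3% of all genes), with a median of 0.16 beside 0.00, and both shares lie near those of all genes. The segment was followed by 5 genes (17.2%, beside 7.33% of all genes), 3 of them lower with the D2 segment, namely Crx and Crxos, described above, and Esx1. Prrx1 and Prrx2, mesenchymal homeobox genes, fell in both comparisons, Prrx1 by 1.70 and 0.99 and Prrx2 by 1.47 and 1.17 on the log2 scale. The summed fibroblast markers were lower in the same comparisons, and their part in the result was not tested. Rhox5, an X-linked reproductive homeobox gene, had log2 fold changes of 0.76 and 0.22, both called, but the second was 0.17 and not called without D2-13B6 replicate 3 (edgeR adjusted p = 0.0546).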

How the data were processed

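The authors deposited expected counts (read numbers estimated per Ensembl gene, often fractional) for 12 libraries; the deposited file's own name gives EMASE, which divides reads between places they fit. Per the submitters' processing notes, Bowtie 1.0.0, edgeR 3.34.1 and mm10 were used, with no role or order given. Of all values 88.1% were whole within 1e-06. GENCODE M21 named 42462 of 43346 IDs. Each column mapped to a library by its label (0 columns left out).

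After rounding, expected counts went into edgeR 4.0.16 under R 4.3.3 (filterByExpr with a minimum count of 10, TMM, quasi-likelihood fit of 4 group means over 12 libraries, Benjamini-Hochberg threshold 0.05). This left 17148 genes. The SE of a log2 fold change is its size over the root of F. DESeq2 1.42.0, RLE size factors, other filters, only the libraries compared, a replicate block and leaving out each library were the alternatives. The test was tried on simulated data. Intervals and floors (3 counts) cover counting error only.

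Members and gene lists were chosen with earlier results of these data known. Named genes were all Obox genes, the 6 genes most like Obox6 and 3 most like its mirror image, the nearest 2 coding genes on each side, and at most 4 called genes per list, those of highest mean CPM. Homeoboxes were found by the recognition-helix residues (Trp, Phe or Val, any, Asn, any, Arg). Replicate numbers are shared across groups, but same-numbered libraries did not deviate together (mean correlation -0.011 over 18 pairs).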

Additional observations from a re-analysis of the deposited data

Results flagged for a closer look

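The results here were picked out because the change with the segment differed between the backgrounds by edgeR's test of that difference (adjusted p below 0.05). The contrast equals both congenic lines minus both parental strains, so anything the congenic libraries share cannot be told apart from it, and 64.5% of all genes passed it.

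Each change was taken as D2 segment minus B6 segment, and the value is the B6 background minus the D2 background. In the Obox family the log2 difference was -2.29 for the sum of all rows except Obox6, -2.93 for Obox4-ps28 and 6.64 for Obox4-ps14, a row whose B6 libraries are near 0. Some genes were selected over these same libraries for a profile similar to Obox6 or its mirror image, so their values are a description and not independent evidence; among them it was 2.92 for Crispld1, 1.27 for Boll, 1.76 for Gm17514 and 1.16 for Aass.

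Among genes named from the lists it was -0.36 for Dppa2, 0.36 for Dppa4, -2.73 for Zscan4f and -2.79 for Zscan4c. For oocyte genes it was 1.11 for Ooep, 1.66 for Khdc3, 1.83 for Nlrp4f and -1.77 for Dppa3. For homeobox genes it was -2.69 for Prrx1, -2.64 for Prrx2 and 0.98 for Rhox5. For neighbours of the cluster it was 0.21 for Sae1, 1.52 for Slc1a5 and -0.87 for Arhgap35.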

How the results depend on the processing

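The sum of Obox rows without Obox6 kept its direction and its side of the threshold in all 6 comparisons under every alternative run, and so did the calls of Crx and Crxos in both segment comparisons where they passed the filter (Crx does not reach a mean of 1 CPM). Counts of called pseudogene rows did not. With a mean of at least 1 CPM they were 1 (D2 against B6), 0 (B6-13D2 against B6), 1 (D2-13B6 against D2), 1 (B6-13D2 against D2), 1 (D2-13B6 against B6), 1 (difference between backgrounds) and 0 (following the segment), since only 1 of the 10 rows was tested. With only the libraries compared they were 4 (D2 against B6), 0 (B6-13D2 against B6), 1 in D2-13B6 against B6 and 0 following. In these comparisons 4, 4 and 1 rows passed the filter, beside 9401 of 15998, 9835 of 15888 and 9857 of 16344 genes called. None of the 5 following rows passed it in B6-13D2 against B6, so the counts of 0 say nothing of them. DESeq2 gave 3 in B6-13D2 against D2 and 2 in D2-13B6 against B6. Without a filter 28 rows were tested instead of 10, and 8 were called in D2-13B6 against B6 and 5 for the difference. The cause was not tested for the DESeq2 counts, and the no-filter counts are over a larger set of rows. The setting that sums all rows gives no such count. Leaving out a library could also change the number of rows tested, which was 11 without D2 replicate 2.

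Leaving out 1 library gave 7 to 10 called rows for D2 against B6, 6 to 8 for B6-13D2 against B6, 7 to 9 in D2-13B6 against D2, 4 to 8 in B6-13D2 against D2 (4 without D2 replicate 2 or B6-13D2 replicate 3), 2 to 6 in D2-13B6 against B6 (2 without B6 replicate 1 or 3), 2 to 4 for the difference (4 without B6-13D2 replicate 2) and 5 following. For Obox6 the log2 values ranged from -6.09 to -4.99 (B6-13D2 against B6), -2.00 to -0.91 (B6-13D2 against D2), -4.33 to -3.91 (D2 against B6), 4.95 to 5.35 (D2-13B6 against D2), 0.99 to 1.06 (D2-13B6 against B6; 1.10 with only the libraries compared) and -0.98 to 0.12 (difference, which changed sign).

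Single genes near 0 or with few counts changed sign. In D2-13B6 against D2, Obox4-ps12 ranged from -5.69 to 1.66 and Obox4-ps14 from -1.72 to 0.87 on leaving out 1 library; in B6-13D2 against B6, Obox4-ps27 ranged from -0.12 to 1.77. Dppa4 in B6-13D2 against B6 was 0.0042 by DESeq2, 0.0041 with RLE and -0.10 to 0.028 on leaving out 1 library. In D2-13B6 against D2, Khdc3 was 0.0014 by DESeq2, 0.015 without a filter and -0.075 to 0.050 on leaving out 1 library, and Nop53 was 0.015 without a filter and -0.023 to 0.030 on leaving out 1. In B6-13D2 against B6, Nop53 was not called without B6 replicate 1 or 2 or B6-13D2 replicate 1 or 2 (log2 0.069 to 0.10). With a mean of at least 1 CPM, D2-13B6 against D2 had 11 of 12 cleavage-stage, 5 of 7 oocyte and 13 of 16 homeobox genes called. Over all genes 9182 of 14136 were called at that filter. Settings for these named genes and for the lists were added after seeing the data.

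Replicate numbers did not pair the libraries. With the replicate block, 9, 6, 7, 7 and 4 rows were called in the 5 comparisons in the order above (D2-13B6 against B6 last), 2 for the difference and 5 following, and Obox4-ps14 in D2-13B6 against D2 was -0.15; the sum was -2.47 in D2-13B6 against D2.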
